A study of Mus musculus with 14 samples.

Results

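The comparison described here is that of Ts1Cje with WT in the extensor digitorum longus (EDL), a fast-twitch muscle of the mouse hind limb. Its members are the 6 EDL samples among the 14 muscle samples of the study, chosen by the tissue and genotype in their labels. The 3 Ts1Cje and 3 WT samples were all of the C57BL/6 strain, received no treatment named in the labels, and came from littermate pairs; age and sex are not given there. The other 8 samples were soleus, a slow-twitch muscle, with 4 per genotype, and serve here for the shared estimate of the spread and for the test of whether an EDL difference is unlike the soleus one. Each sample was hybridised to 1 Agilent 1-colour array, and nothing in the labels says whether a sample pooled muscles or mice.

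Ts1Cje mice serve as a model of Down syndrome. They carry an extra copy of the distal part of chromosome 16, joined to the end of chromosome 12, with a small loss of chromosome 12 at the junction. The line arose during targeting of Sod1, the gene of cytosolic superoxide dismutase, which lies at the border of the extra segment, and the extra copy of Sod1 is known to be disrupted. A gene present in an additional copy usually yields more transcript in proportion, while genes elsewhere in the genome respond only through the cell. Whole muscle holds fibres, vessels, nerve, connective tissue and resident immune cells, so fewer cells of a type and less RNA per cell cannot be told apart in any value below.

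All 6 EDL arrays lay on 1 slide. The share of probes well above background ran from 41.2% to 47.2% per array, no probe was saturated, and arrays of the same genotype correlated at 0.982 or more across genes. Levels are log2 signals relative to the 75th percentile of the array, so that a level of 0 is the signal of that percentile and negative levels are dimmer. Fast fibre genes marked the tissue: Myh4, the myosin of the fastest fibres, stood between 11.25 and 11.94 on every EDL array. The Y-linked genes Eif2s3y (levels from 2.38 to 3.11) and Ddx3y (2.13 to 2.55) were well above background on all 6.

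Of 14141 genes, 1 was called (limma, Benjamini-Hochberg adjusted p under 0.05), which is 0.00707% of those tested. It rose in Ts1Cje, and it is Dnah11. At an unadjusted limma p under 0.05 there were 407 genes (2.88%), 256 higher and 151 lower in Ts1Cje. With each replicate number treated as a littermate pair, in the EDL arrays alone, that count was 631 and Dnah11 stayed the single gene called. All 3 Ts1Cje arrays lay above all 3 WT arrays for 399 genes (2.82%) and below them for 392 (2.77%), and such genes are described below as having genotypes that did not overlap. Over all genes the median difference was 0.00 and the middle 50% of genes lay between -0.09 and 0.10.

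**Figure D1:**
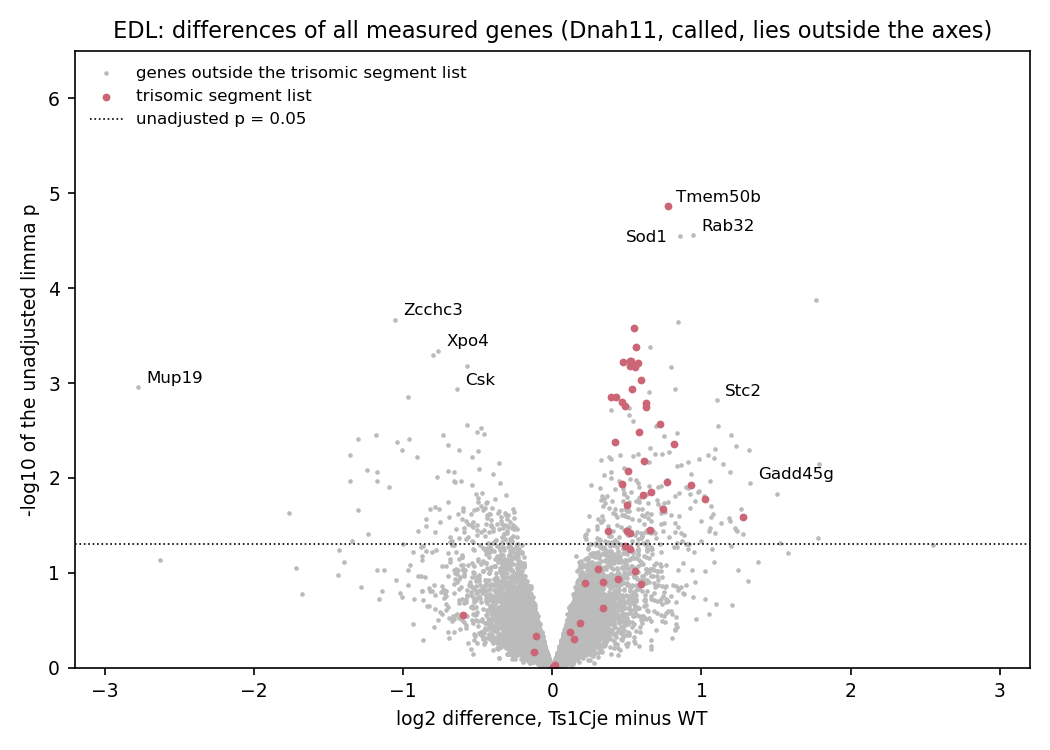
Difference between genotypes (horizontal axis, log2, Ts1Cje minus WT) against the negative log10 of the unadjusted limma p (vertical axis) for the genes measured in the EDL, with the trisomic segment list in red and the other genes in grey. The red points gather near their median of 0.52, while the grey points spread to both sides of 0; Dnah11 lies outside the axes.

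Stretches of 3 probes are shown: Dnah11 is the single gene called, and the Sod1 probe shares a run of bases with a probe that lies next to a called one. Each is 30 of the 60 bases of its probe, 5′ to 3′. In the first 2, capitals mark the part of a run of 37 bases that the Sod1 probe and an unnamed chromosome 6 probe share; in the last, capitals mark AATAAA, the hexamer of polyadenylation signals.
Sod1 probe, chr16:90226509-90226568, plus strand (mm9): GTCTCAGACTCATCTGCTACCCTcaaacca
Unnamed probe, chr6:67156068-67156127, plus strand (mm9): GTCTCAGACTCATCTGCTACCCTgctaaac
Dnah11 probe, chr12:119116456-119116515, minus strand (mm9): tctattgtctcttAATAAAaaggacacctt

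Dnah11, a heavy chain of the dynein motors of cilia, had levels of -5.29, -4.68 and -5.23 on the WT arrays and 3.76, 3.75 and 3.81 on the Ts1Cje arrays. The Ts1Cje values agreed to within 0.033 (SD), and no WT array was well above background. The bound on the fold is at least 103 (bright mean over the lowest signal that counts as above background), with a limma adjusted p of 6.0e-07. With normexp, a background correction that models the dim end of the array, the fitted difference was 4.35. With WT below background, that is not a measure of its size. Normexp was run with an offset of 50, which is added to every signal. The 75th percentile of the processed signal lay between 62.4 and 103.6 on the EDL arrays. Log differences of dim probes are therefore smaller with normexp by construction. Around Dnah11 on chromosome 12, in genes named after their values were seen, Rapgef5 (-0.06) and Sp8 (-0.19) overlapped between genotypes. Sp4, a transcription factor, stood at -0.32, -0.61 and -0.53 in WT and -0.96, -0.65 and -1.05 in Ts1Cje. Its difference of -0.40 (SE 0.17, limma adjusted p = 0.99997) was not called.

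Sod1 stood at 6.29, 6.41 and 6.27 in WT and 7.23, 6.98 and 7.32 in Ts1Cje, a difference of 0.86 (SE 0.14, limma adjusted p = 0.099). The genotypes did not overlap, and with normexp the difference was 0.85. Where all 25166 kept probes were tested, named or not, 3 were called (0.0119%): the Dnah11 probe and 2 of the 6673 probes without a gene symbol. One of these 2 lies at chr6:67155960-67156019 on the minus strand (mm9), within an annotated long noncoding RNA region (chr6:67155508-67216941). Its levels were 3.17, 3.36 and 3.12 in WT and 4.34, 4.29 and 4.25 in Ts1Cje, well above background on every array. It rose by 1.07 (SE 0.13, limma adjusted p = 0.0192), and by 0.99 with normexp (limma adjusted p = 0.00186). In the soleus the same probe was higher by 1.04 (SE 0.11, limma adjusted p = 0.0035). The unnamed probe with the run shared with Sod1 starts 48 bases further on, on the opposite strand, and stood at 6.02, 6.21 and 6.06 in WT against 7.01, 6.86 and 7.07 in Ts1Cje (0.88, limma adjusted p = 0.0612). The differences of the Sod1 probe and of both chromosome 6 probes thus lay between 0.86 and 1.07; whether transcripts of one place bind the probes of the other was not tested. The call of the minus-strand probe was kept without WT replicate 2 (limma adjusted p = 0.0408) and lost without any other EDL array (0.076 to 0.125). With replicate numbers as pairs in the EDL arrays alone, neither unnamed probe was called (limma adjusted p = 0.99997 for both).

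The other unnamed probe called lies at chr17:29379295-29379354 on the plus strand (mm9), also in an annotated long noncoding RNA region. It fell (fitted difference -0.83, SE 0.11, limma adjusted p = 0.0243), from -2.75, -3.04 and -2.95 in WT to -3.79, -3.75 and -3.70 in Ts1Cje. It was well above background on 2 WT arrays and on none of Ts1Cje, its bound is at least 1.005-fold, and with normexp its difference was -0.06. Both genotypes stood at the edge of detection. For this probe too the call was kept without WT replicate 2 (limma adjusted p = 0.0408) and lost without any other EDL array (0.0831 to 0.162). In the soleus its difference was -0.09 (limma adjusted p = 0.642), and the interaction of genotype and muscle had an unadjusted limma p of 0.000155 and an adjusted p of 0.774. The probe was picked by its EDL difference, which is part of that contrast, and this tends to lower the unadjusted p. Among unnamed probes, 18 lie within the trisomic segment, and of these 11 were higher with a median of 0.02.

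The extra segment was read as a list of 68 genes, of which 53 were measured. Of these, 50 were higher in Ts1Cje, with a median of 0.52, and the genotypes did not overlap for 33. With normexp the median was 0.34. By array, the mean deviation of its members from their 6-array mean was -0.24, -0.24 and -0.23 in WT and 0.22, 0.22 and 0.27 in Ts1Cje. The 385 measured genes of chromosome 16 ahead of the segment, without Sod1, had a median of -0.01 and 182 were higher. Tmem50b, a membrane protein of the endoplasmic reticulum, stood at 2.67, 2.96 and 2.78 in WT and 3.55, 3.59 and 3.59 in Ts1Cje.

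Outside that list lay 14088 genes, with a median of -0.00; 366 had all Ts1Cje arrays above WT and 392 all below. A difference over 1.5-fold with no overlap was found for 135 of them, 83 higher and 52 lower, and one over 2-fold for 35, 22 higher and 13 lower. Of the 135, 9 also differed by over 1.5-fold with normexp, 8 higher and 1 lower. The normexp offset shrinks log differences of dim genes, so this count cannot decide whether their differences hold. Besides Dnah11 and Sod1 the 9 included, named after their values were seen, Dkk3, Gadd45g, Espnl, Nfkbia, Retnla and Errfi1. The remaining one has a clone name.

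Gadd45g, a growth arrest and stress response gene, stood at 4.65, 4.68 and 4.87 in WT and 7.02, 5.17 and 5.99 in Ts1Cje (1.33, SE 0.45, limma adjusted p = 0.99997). The WT arrays lay close together, and the Ts1Cje arrays ranged from 5.17 to 7.02. Errfi1, an inhibitor of the epidermal growth factor receptor, showed the same array order within Ts1Cje, with 2.46, 2.29 and 2.22 in WT and 3.55, 2.75 and 3.12 in Ts1Cje. Dkk3, a secreted member of the Dickkopf family of Wnt antagonists, was the one of the 9 that was lower, with 2.33, 2.41 and 2.45 in WT and 1.60, 0.46 and 1.61 in Ts1Cje. Retnla, a secreted resistin-like protein of alternatively activated macrophages and fat tissue, stood at 2.48, 3.21 and 3.38 in WT and 3.87, 3.58 and 3.80 in Ts1Cje. Espnl, an actin-bundling protein related to espin, owed its 0.77 largely to 1 array (1.62, 1.57 and 1.53 in WT, and 1.91, 1.93 and 3.21 in Ts1Cje). None of these was called, each at a limma adjusted p of 0.99997.

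Of the genes with the smallest p outside the list, those higher in Ts1Cje were led, after Dnah11, by Rab32 and Sod1. Rab32, a small GTPase of lysosome-related organelles, stood at -2.78, -2.86 and -2.44 in WT and -1.69, -1.63 and -1.91 in Ts1Cje (0.95, SE 0.15, limma adjusted p = 0.099; 0.19 with normexp). Tnfrsf25, a death receptor of the tumour necrosis factor receptor family, had a tight Ts1Cje group at 0.87, 0.96 and 0.92, against 0.38, -0.00 and 0.42 in WT. Dnpep, an aminopeptidase of acidic residues, stood at 4.70, 4.48 and 4.66 in WT and 5.07, 4.88 and 5.07 in Ts1Cje, and kept its size with normexp (0.39 and 0.36). Rom1, a membrane protein known from photoreceptor discs, was at 2.32, 2.57 and 2.45 in WT and 2.92, 3.10 and 2.87 in Ts1Cje (0.51, and 0.45 with normexp). Siae, which removes acetyl groups from sialic acids, was higher by 0.48. Stc2, a secreted stanniocalcin, was well above background on 0 WT and 3 Ts1Cje arrays and at least 1.64-fold higher. The rest were Dppa5a, a marker of pluripotent cells (0.84), Sh2d7 (0.82), Sh3yl1, a phosphoinositide-binding protein (0.65), and Srgap1, a GTPase-activating protein of Slit and Robo signalling (0.52). None passed the threshold, and the limma adjusted p of these 10 lay between 0.099 and 0.814.

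Genes with the smallest p among those lower all stood at negative levels on every array. Zcchc3, a nucleic acid-binding zinc finger protein, stood at -2.11, -1.85 and -1.73 in WT and -3.14, -3.22 and -2.51 in Ts1Cje (-1.06, SE 0.21, limma adjusted p = 0.458). Xpo4, a nuclear transport receptor, was at -2.19, -2.29 and -2.12 against -3.15, -2.86 and -2.88, while its other kept probe, which no Ts1Cje array had well above background, overlapped between genotypes. Csk, the kinase that restrains Src family kinases, was at -1.43, -1.36 and -1.15 against -1.98, -2.11 and -1.77, well above background on all 6 arrays. For the first Xpo4 probe and the other 2 genes the mean difference was larger than the range within either genotype. Mup19, one of the major urinary proteins, stood lower by at least 2.87-fold, with -2.88, -1.03 and -0.06 in WT and -4.70, -4.63 and -2.97 in Ts1Cje, so its WT arrays ranged widely among themselves. Mup17 and Mup4 were well above background on 1 WT and 0 Ts1Cje arrays, and no fold is given because their bounds fell below 1-fold. Near-identical copies of this family can share signal, so the 3 are uncertain as separate genes. The others were Atp6v1e2, a testis form of a proton pump subunit (-0.80), Tmem59l (-0.57), Sh3pxd2b, a podosome adaptor (-1.18, and -0.66 without Ts1Cje replicate 1), Aspg, an asparaginase (-0.96), Cbx2, a Polycomb protein (-1.04), and Tenm2, a teneurin (-0.69). Olfr1564, an odorant receptor, and Gpr34, a lysophospholipid receptor, were well above background on 1 WT and 0 Ts1Cje arrays, and were lower by at least 1.099-fold and 1.12-fold. Of the 22 genes with the smallest p in either direction, without Dnah11 and Sod1, 8 were well above background on all 6 arrays and 18 had under 50% of their difference left with normexp. For dim genes such a loss follows in part from the normexp offset.

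**Figure D2:**
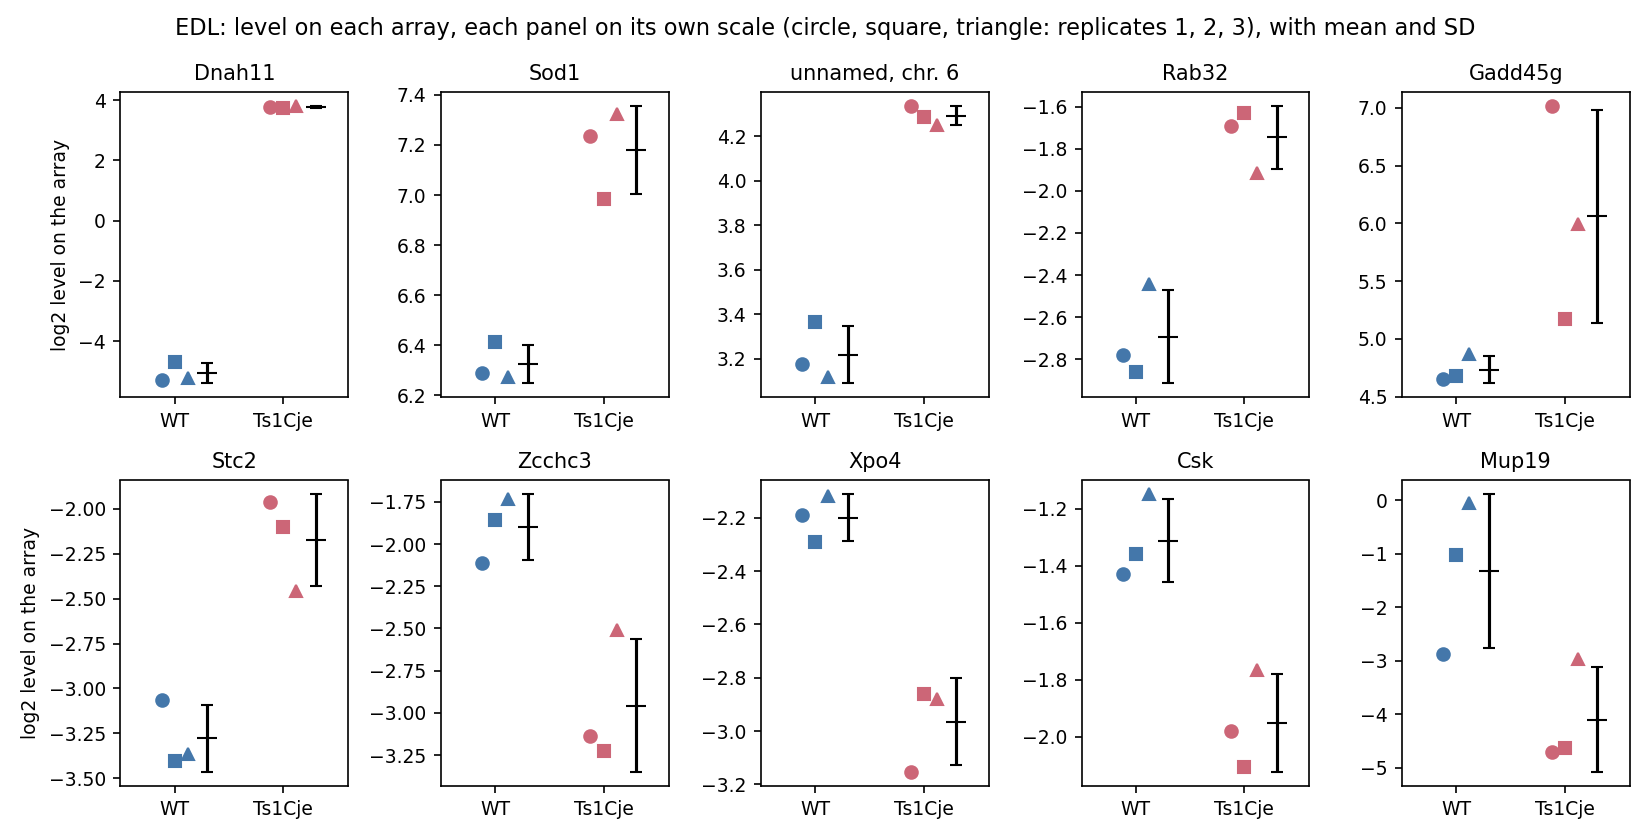
Log2 level relative to the array's 75th percentile (vertical axis, its own scale in each panel) of 9 genes and the unnamed chromosome 6 transcript on the 3 WT (blue) and 3 Ts1Cje (red) EDL arrays; black bars give mean and SD of 3 arrays. Genotypes are apart in all 10 panels, with a difference of 0.86 for Sod1 and -0.64 for Csk, and the Ts1Cje arrays of Gadd45g range from 5.17 to 7.02.

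The largest differences outside the list with no overlap included genes that 1 genotype left below background. Rab27b, a GTPase of exocytosis, was well above background on 0 WT and 3 Ts1Cje arrays (at least 1.38-fold higher). Slc23a3, of the ascorbate transporter family, had the same pattern and was at least 1.95-fold higher, and Ccl8, a chemokine for monocytes, was at least 1.63-fold higher with 1 Ts1Cje array above background. Ihh, the Indian hedgehog ligand, differed by 1.24 (0.81 without WT replicate 2, and 0.09 with normexp). C1qtnf7, a secreted protein with a C1q domain, differed by 1.19, and by 0.55 without Ts1Cje replicate 3. Galnt14, an enzyme of O-glycosylation, and Gsap, a gamma-secretase activating protein, were not well above background on any EDL array, so no fold is given. Lower in Ts1Cje were also Cdh4, a cadherin (-1.24: -0.51, -0.47 and -0.93 in WT, -1.29, -2.65 and -1.70 in Ts1Cje), and Cd8b1, a chain of the T cell co-receptor CD8 (-1.18). For Slc7a10, an amino acid transporter, WT replicate 3 stood at -2.20 and the other 5 arrays between -5.46 and -4.32. It was well above background on 1 WT and 0 Ts1Cje arrays, and no fold is given because its bound fell below 1-fold. Of 166 genes chosen by the rules for naming, 70 differed by 0.5 or more on the log2 scale, and for 29 of these the difference shrank by over 1.5 times or changed sign when 1 EDL array was left out.

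Gene families were read as 44 lists, each described by its median and by how many members had genotypes that did not overlap, beside 2.82% of all genes higher and 2.77% lower. No list had a member called by limma over all genes. In 11 lists the median was at least 0.15 in size, and in 3 of those 11 (glucocorticoid and fasting response, adipocytes, red blood cells) it changed sign when 1 array was left out.

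**Figure D3:**
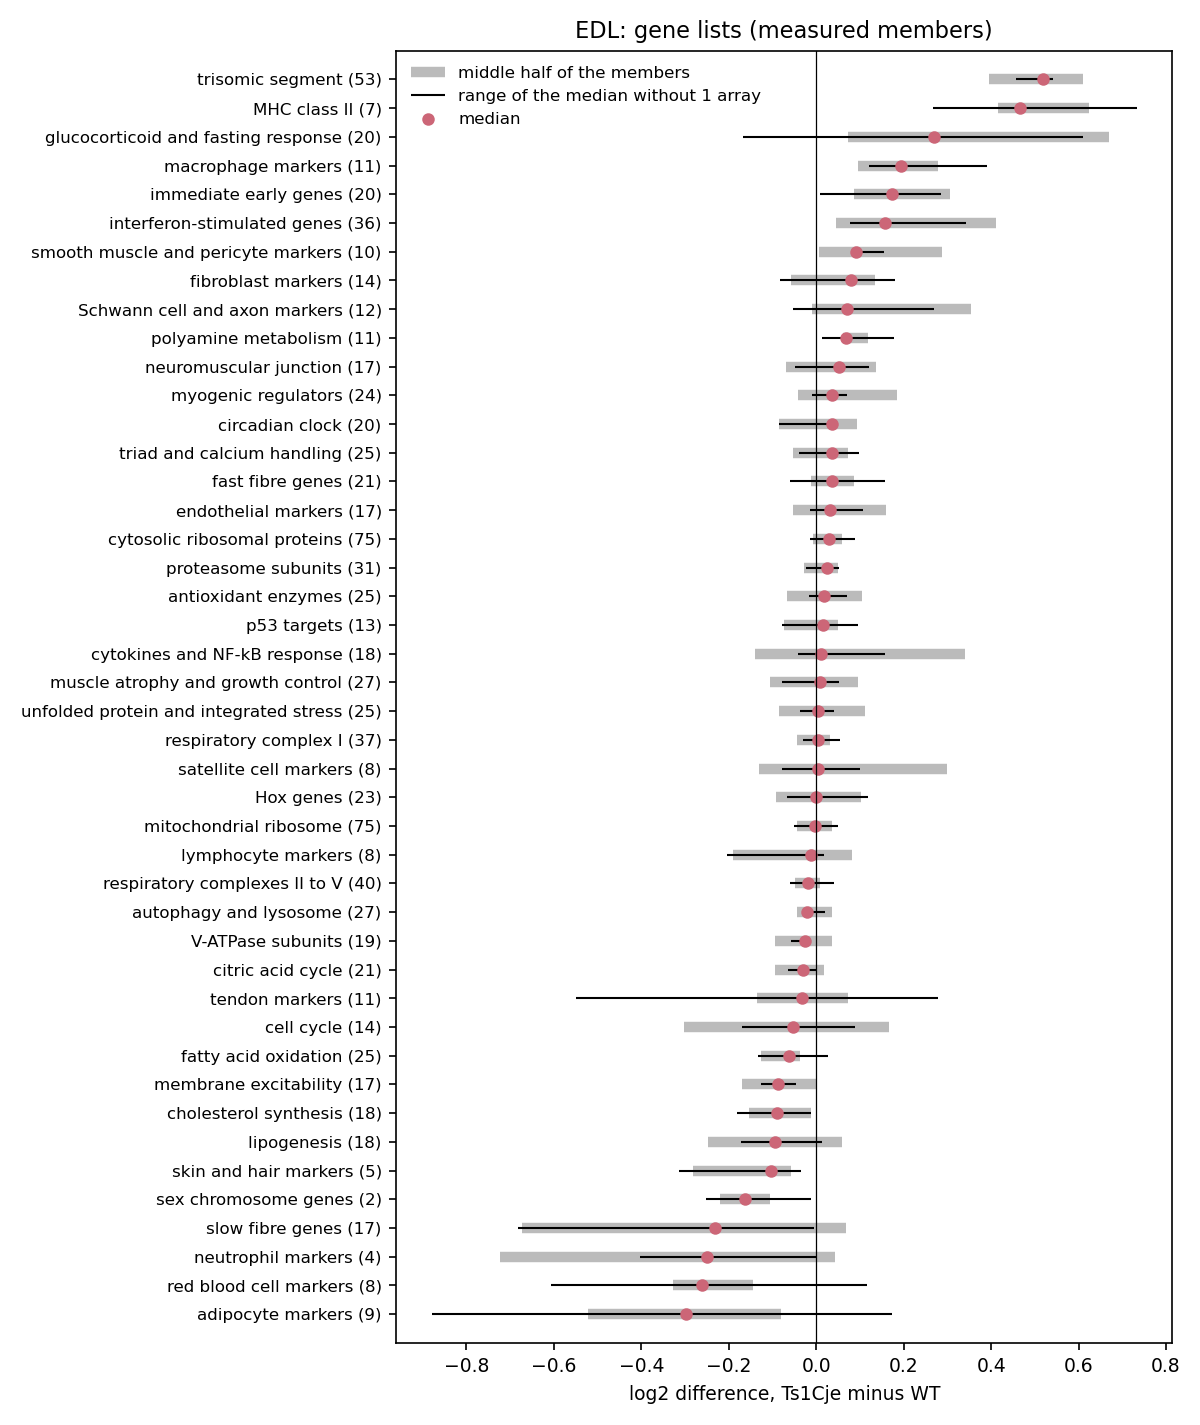
Median log2 difference, Ts1Cje minus WT, of each gene list in the EDL (red point), with the middle 50% of its measured members (grey bar) and the range of the median when any 1 of the 6 arrays is left out (black line); the number measured is in brackets. The trisomic segment (0.52, from 0.46 to 0.54) and MHC class II (0.47, from 0.27 to 0.73) stay on 1 side of 0, whereas the lines of the glucocorticoid, adipocyte, red blood cell and tendon lists cross it.

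MHC class II molecules present peptides to helper T cells and are carried by macrophages, dendritic cells and B cells, under the control of the coactivator Ciita. All 7 listed genes were measured; 6 were higher in Ts1Cje, with a median of 0.47, and 3 had no overlap between genotypes. With normexp the median was 0.27. Cd74, the invariant chain, stood at 1.84, 2.16 and 2.70 in WT and 2.83, 2.96 and 2.93 in Ts1Cje (0.68, SE 0.29). H2-Ab1, a beta chain, stood at 3.27, 3.49 and 4.10 in WT and 4.27, 4.18 and 4.35 in Ts1Cje (0.65, SE 0.28), and its other kept probe, which overlaps the first, at 0.60. H2-Eb1, the other beta chain, stood at 3.02, 2.87 and 3.68 in WT and 3.71, 3.81 and 3.86 in Ts1Cje (0.60, SE 0.27). In all 3 genes the Ts1Cje arrays agreed within 0.09 (SD) of each other, WT replicate 3 lay nearest to them, and WT replicate 1 or 2 lay lowest. The limma adjusted p of each was 0.99997, and none was called.

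The remaining class II members overlapped between genotypes. H2-DMb1, of the peptide-loading complex, was higher by 0.45, H2-Aa, the alpha chain, by 0.47, and H2-DMa by 0.37, while Ciita stood at -0.14. As a group the list's mean deviation was -0.56, -0.23 and 0.13 on the WT arrays and 0.15, 0.31 and 0.20 on the Ts1Cje arrays, so that the genotypes were separated by the narrow gap between WT replicate 3 and Ts1Cje replicate 1. The median ranged from 0.27 without WT replicate 1 to 0.73 without WT replicate 3. In the soleus it was 0.35, where the median over all genes was 0.07. Class II promoters are known for a conserved Y box, an inverted CCAAT motif. Promoters were available for 4 of the 7 genes, and CTGATTGG, searched on both strands of the 250 bases ahead of the start, was in 2 of them (H2-Aa and H2-Eb1), against 4.07% of 27025 promoters. The H2-Eb1 stretch is shown because the gene is among the 3 without overlap, with the Y box in capitals (RefSeq, GRCm38.p6):
H2-Eb1 promoter, chr17:34305760-34305859, plus strand: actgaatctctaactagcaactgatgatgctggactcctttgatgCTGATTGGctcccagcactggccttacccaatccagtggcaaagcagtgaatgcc

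Interferon-stimulated genes encode antiviral enzymes and sensors and answer to the interferon receptors, of which the chains Ifnar1, Ifnar2 and Ifngr2 are encoded in the trisomic segment. Of 39 listed, 36 were measured and 29 were higher in Ts1Cje, with a median of 0.16 (0.10 with normexp); 4 had no overlap. Oasl1, of the 2′-5′-oligoadenylate synthetase family, stood at -2.11, -1.79 and -2.35 in WT and -1.73, -0.24 and -1.01 in Ts1Cje (1.09, SE 0.32). Oas1a, a synthetase that activates RNase L, stood at -1.27, -1.42 and -0.66 in WT and -0.60, 0.58 and -0.15 in Ts1Cje (1.06, SE 0.35). Ifit3, which belongs to a family that binds viral RNA, stood at -0.38, -0.59 and -0.59 in WT and -0.35, 0.72 and 0.22 in Ts1Cje (0.72, SE 0.33). Bst2, which tethers budding virus, differed by 0.40. In each of these 4, Ts1Cje replicate 1 lay just above the highest WT array, and the other 2 Ts1Cje arrays well above it.

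Over the whole list Ts1Cje replicate 1 lay below the WT arrays instead. The list's mean deviation was -0.09, -0.15 and -0.14 in WT, and -0.25, 0.36 and 0.27 in Ts1Cje. Ts1Cje replicate 1 was thus the lowest of the 6 arrays and the other 2 Ts1Cje arrays the highest. Irf7, a transcription factor of the response, also had Ts1Cje replicate 1 lowest and the other 2 Ts1Cje arrays highest. It stood at -2.26, -2.61 and -2.80 in WT and -3.11, -1.30 and -1.65 in Ts1Cje. Without Ts1Cje replicate 1 the median was 0.34, and without Ts1Cje replicate 3 it was 0.08. In the soleus the median was 0.37, with 33 of 36 higher. Over all genes the soleus median was 0.07, and other lists also leaned upward there, such as cytosolic ribosomal proteins (69 of 75 higher). The interferon-stimulated response element, searched as a pair of GAAA repeats with any 2 bases between them on both strands of the 250 bases ahead of the start, was in 13 of the 29 members with a promoter, against 3.04% of 27025 promoters. The stretches of 2 members without overlap are shown, with the matches in capitals (RefSeq, GRCm38.p6); on the first the matches read on the other strand, and on the second 2 of them overlap:
Ifit3 promoter, chr19:34583362-34583461, plus strand: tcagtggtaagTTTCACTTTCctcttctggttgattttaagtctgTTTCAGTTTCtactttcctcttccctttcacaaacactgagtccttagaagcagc
Oas1a promoter, chr5:120907526-120907584, minus strand: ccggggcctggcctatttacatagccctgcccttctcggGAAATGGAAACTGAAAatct

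**Figure D4:**
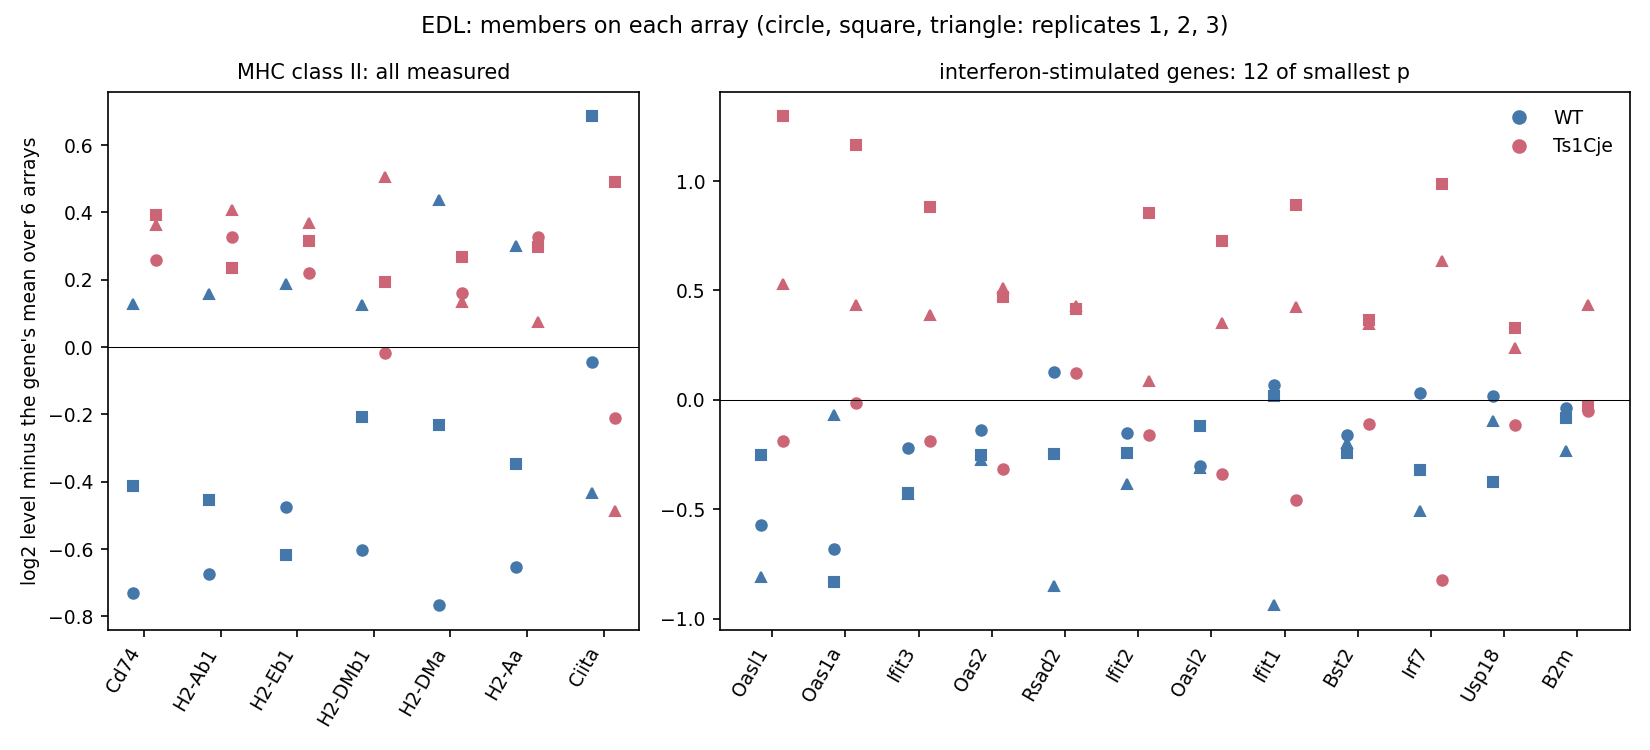
Log2 level of each gene minus its mean over the 6 EDL arrays (vertical axis), for the 7 MHC class II genes (left) and the 12 interferon-stimulated genes of smallest p (right), with WT in blue and Ts1Cje in red. For Cd74, H2-Ab1 and H2-Eb1 all red points lie above all blue ones, and among the interferon-stimulated genes the red circles (Ts1Cje replicate 1) lie with or below the WT points in most columns.

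Other immune lists were mixed. Of 18 measured genes of cytokine and NF-kB signalling, 9 were higher, with a median of 0.01, 2 without overlap higher (Nfkbia and Ccl8) and 1 lower (Socs3). Nfkbia, the inhibitor that NF-kB itself induces, stood at 3.05, 2.61 and 2.72 in WT and 4.35, 3.25 and 3.34 in Ts1Cje (0.85, SE 0.34, limma adjusted p = 0.99997). Cxcl9, a chemokine induced by interferon gamma, stood at -4.78, -4.12 and -3.98 in WT and -4.52, -2.23 and -1.99 in Ts1Cje, with 2 Ts1Cje arrays above background. Socs3, a feedback inhibitor of cytokine receptors, stood at 0.80, 0.40 and 0.22 in WT and -0.07, 0.20 and 0.07 in Ts1Cje. Of 11 measured macrophage markers 10 were higher, with a median of 0.19 (0.12 with normexp) and none without overlap; their mean deviation ran from -0.28 to 0.09 in WT and from 0.05 to 0.23 in Ts1Cje. Cd68, a lysosomal protein of macrophages, had the smallest p of them, and its 0.87 came largely from Ts1Cje replicate 3 (2.17, against -0.07 to 0.48 on the other 5 arrays). Adgre1, a surface receptor that defines macrophages, differed by 0.06. The macrophage and class II lists had the same order of WT arrays, with replicate 1 lowest and replicate 3 highest; the part of macrophage number in the class II values was not tested. Lymphocyte markers had a median of -0.01 in 8 measured genes.

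Glucocorticoids and fasting raise a set of muscle genes that spare glucose and slow growth. Of 20 measured genes of this response 17 were higher in Ts1Cje, with a median of 0.27, and 1 had no overlap. The larger contrast in these genes ran between replicate numbers. The mean deviation was 0.82 in WT replicate 1 and 1.24 in Ts1Cje replicate 1, against -0.57 and -0.54 for replicate 2 and -0.77 and -0.18 for replicate 3. Pdk4, which shuts off pyruvate oxidation, stood at 8.09, 3.13 and 4.77 in WT and 8.02, 3.22 and 6.73 in Ts1Cje. Mt2, a metallothionein, stood at 5.03, 2.05 and 2.16 in WT and 5.84, 2.35 and 3.46 in Ts1Cje. Fkbp5, a chaperone of the glucocorticoid receptor, stood at 4.61, 2.91 and 2.51 in WT and 4.62, 2.43 and 2.60 in Ts1Cje. In each of these, the samples numbered 1 were high in both genotypes.

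Between samples of the same replicate number, some of these genes were higher in Ts1Cje in all 3 comparisons. Ddit4, which restrains mTORC1, stood at 4.12, 3.23 and 2.29 in WT and 6.09, 3.97 and 4.17 in Ts1Cje (1.53, SE 0.70, limma unadjusted p = 0.0486, and 0.0034 with pairs as a block). Arrdc2, an arrestin-domain gene, stood at 4.95, 3.19 and 2.80 in WT and 5.37, 4.06 and 4.33 in Ts1Cje. Its relative Arrdc3 had no overlap, with 0.09, -0.13 and -0.28 in WT and 1.03, 0.16 and 0.54 in Ts1Cje (0.69, SE 0.21). Their limma adjusted p was 0.99997 in each case. Leaving out Ts1Cje replicate 1 took the list's median to -0.17, leaving out WT replicate 3 took it to -0.05, and it was 0.61 without WT replicate 1. Immediate early genes, which respond within minutes to activity or stress, had a median of 0.17 with 17 of 20 higher and none without overlap. Atf3, a stress-induced transcription factor, stood at -0.27, -1.27 and -0.15 in WT and 1.41, -0.35 and 0.98 in Ts1Cje. WT replicate 2 had the lowest mean deviation of that list (-0.54), and without it the median was 0.01.

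**Figure D5:**
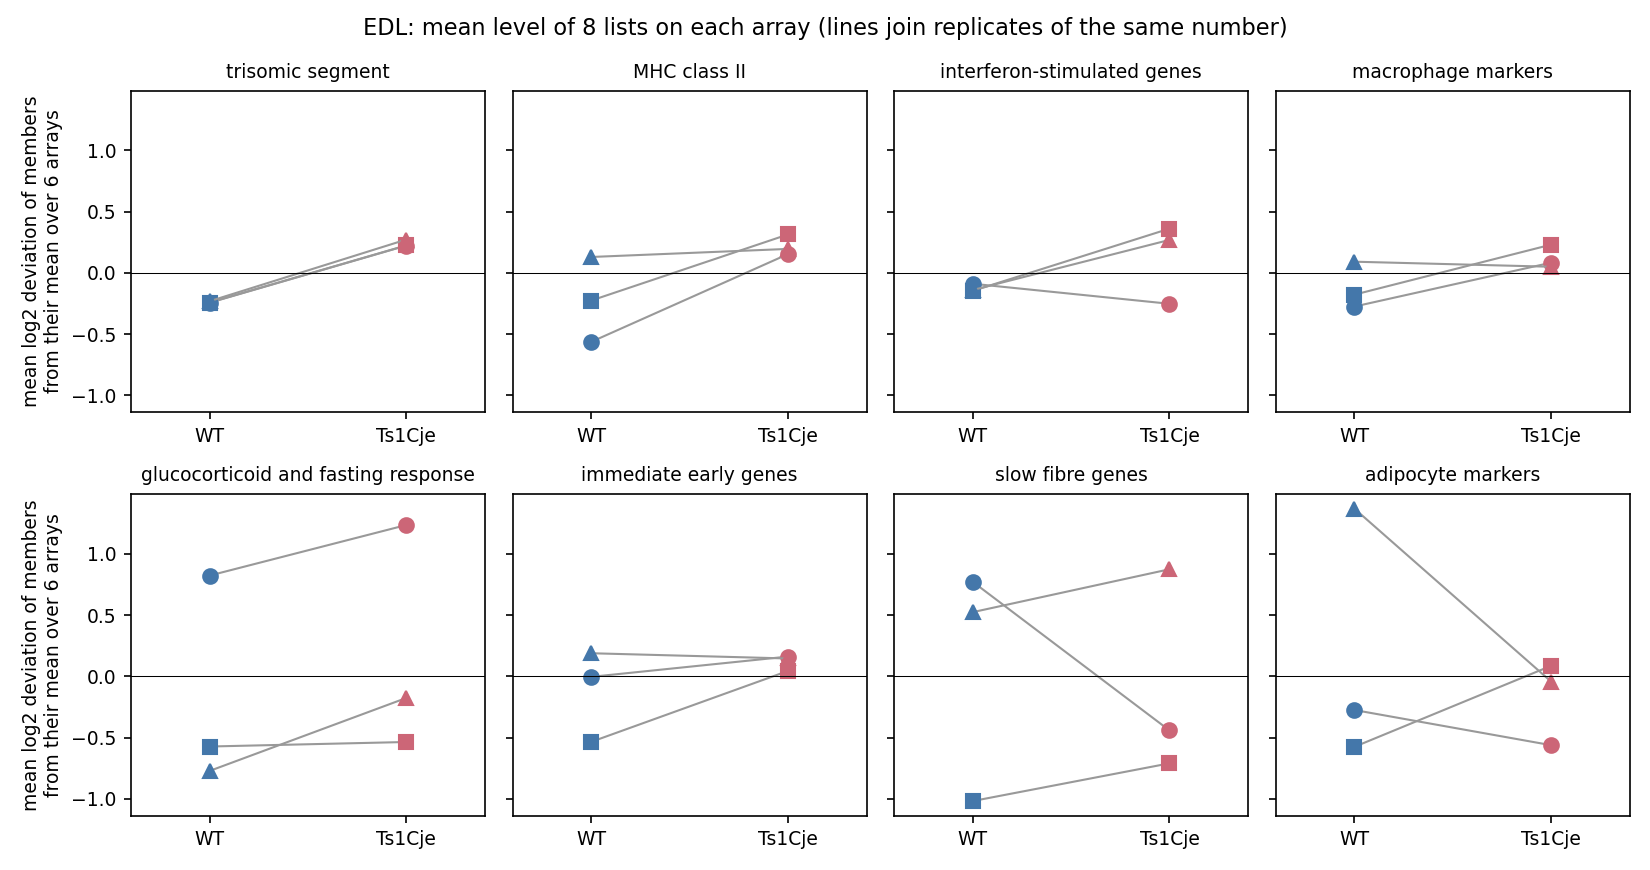
Mean log2 deviation of each list's members from their mean over the 6 EDL arrays (vertical axis), with WT at left, Ts1Cje at right, and lines joining samples of the same replicate number. The trisomic segment separates the genotypes in a narrow band, at -0.24 to -0.23 against 0.22 to 0.27, while glucocorticoid and slow fibre genes spread more within a genotype than between genotypes.

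Among genes of muscle atrophy and growth control, 15 of 27 measured were higher, with a median of 0.01. Fstl3, a secreted inhibitor of myostatin and activin, was the one without overlap, at -1.37, -1.30 and -1.24 in WT and -0.47, -0.62 and -0.62 in Ts1Cje (0.73, SE 0.25, limma adjusted p = 0.99997; 0.31 with normexp). Both genotypes were tight, and no array left out moved it beyond 0.68 to 0.76. The ubiquitin ligases of atrophy stood at 0.09 (Trim63) and 0.01 (Fbxo32), and Acvr2b, a myostatin receptor, at -0.31. Myogenic regulators had a median of 0.04 in 24 genes; Ankrd1, a stretch-responsive titin-binding protein, was higher by 0.91 with overlap, and Six4, a homeobox factor of myogenesis, lower by 0.30 without overlap. Neuromuscular junction genes had a median of 0.05 in 17 genes and none without overlap, the acetylcholine receptor subunit Chrnd standing at -0.20 and 0.01 without Ts1Cje replicate 1. Triad and calcium-handling genes had a median of 0.04 in 25 genes.

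Genes of membrane excitability had a median of -0.09, with 5 of 17 higher. Clcn1, the chloride channel that sets the resting conductance of fibres, was the one without overlap. It stood at 1.71, 1.74 and 1.70 in WT and 1.45, 1.51 and 1.48 in Ts1Cje (-0.24, SE 0.11, limma unadjusted p = 0.056), a small difference with a smaller spread, and without any 1 array it lay between -0.25 and -0.22. Aqp4, a water channel of fast fibres, stood at -0.39, and Kcnj11, a pore subunit of the ATP-sensitive potassium channel, at -0.17, both with overlap.

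Energy metabolism differed little. Of 25 genes of fatty acid oxidation 4 were higher, with a median of -0.06; Echs1, a hydratase of the pathway, was lower without overlap (4.80, 4.85 and 4.79 in WT, and 4.65, 4.57 and 4.70 in Ts1Cje). Without Ts1Cje replicate 2 the list's median was 0.03. The citric acid cycle list stood at -0.03 in 21 genes, and Pdk2, a kinase that inhibits pyruvate dehydrogenase, was lower by 0.11 on a spread of at most 0.02 within a genotype (6.06, 6.06 and 6.05 in WT, and 5.96, 5.94 and 5.95 in Ts1Cje). The other kept Pdk2 probe overlapped between genotypes, at 3.22, 3.18 and 3.35 in WT and 3.09, 3.22 and 3.17 in Ts1Cje. Subunits of respiratory complex I had a median of 0.00 in 37 genes, with Ndufa9 lower without overlap (-0.08), and those of complexes II to V of -0.02 in 40, with 13 higher. Cholesterol synthesis (18 genes) and lipogenesis (18 genes) both stood at -0.09, with no member without overlap. Antioxidant enzymes, a list without Sod1, had a median of 0.02 in 25 genes; Prdx4, a peroxiredoxin of the secretory pathway, was higher by 0.22 and Gstm1, a glutathione transferase, lower by 0.19, each without overlap.

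Lists of protein machines were the narrowest. Cytosolic ribosomal proteins had a median of 0.03, with 53 of 75 higher, all members between -0.08 and 0.14 and none without overlap. Without Ts1Cje replicate 3 that median was -0.02. Mitochondrial ribosomal proteins had a median of -0.00 in 75 genes, with 2 higher (Mrpl40 by 0.14 and Mrps35 by 0.13) and 2 lower (Mrpl41 at -0.13 and Mrps31 at -0.11) without overlap. The other kept probe of Mrpl40 overlapped between genotypes (0.14), and that of Mrpl41 did not (-0.34). Proteasome subunits had a median of 0.02 in 31 genes, all between -0.06 and 0.16. The 19 subunits of the V-ATPase, the proton pump of lysosomes, had a median of -0.03, and 2 were lower without overlap, Atp6v1e2 and Atp6v0e2 (-0.14). Autophagy and lysosome genes stood at -0.02 in 27 genes, all between -0.17 and 0.19. Polyamine metabolism had 10 of 11 higher by a median of 0.07, led by Sat1, which acetylates spermidine and spermine (0.29), and Azin1, the antizyme inhibitor (0.26), none without overlap.

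Regulatory lists also had medians near 0. The unfolded protein and integrated stress responses had a median of 0.00 in 25 genes, with Atf6, a membrane-bound stress sensor, lower by 0.33 without overlap, Hsp90b1, a chaperone of the endoplasmic reticulum, higher by 0.12 without overlap, and Asns, the asparagine synthetase, at 0.36 with overlap. Circadian clock genes had a median of 0.04 in 20 genes; Per1, a repressor of the clock that glucocorticoids also induce, stood at 4.87, 3.35 and 2.87 in WT and 4.74, 4.01 and 4.18 in Ts1Cje, high in both samples numbered 1. Its other kept probe stood between 2.57 and 3.04 on the 6 arrays, lowest in both samples numbered 1, with a difference of -0.10. Targets of p53 had a median of 0.02 in 13 genes, with Bbc3, a promoter of apoptosis, lower without overlap (0.04, 0.22 and 0.16 in WT, and -0.18, -0.17 and -0.46 in Ts1Cje). Cell cycle genes had a median of -0.05 in 14 genes; Birc5, a protein of cell division, stood at 2.30 in WT replicate 3 and between -3.45 and -2.56 on the other 5 arrays, and its -1.68 became 0.09 without that array. Hox genes, which record position along the body, had a median of -0.00 in 23 measured of 37 and none without overlap.

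Markers of other tissues mostly varied from sample to sample more than between genotypes. Adipocyte markers had a median of -0.30, but WT replicate 3 alone had a mean deviation of 1.37. Cfd, the adipsin of fat cells, stood at 5.31 on that array and between 2.09 and 3.40 on the other 5, and without it the list's median was 0.17. Slow fibre genes had a median of -0.23, with mean deviations of 0.77, -1.02 and 0.52 in WT and -0.44, -0.71 and 0.87 in Ts1Cje. Of 17 measured, 5 were higher and 12 lower, none without overlap. The 1 member with an unadjusted limma p under 0.05, Tnni3, was higher by at least 1.39-fold. It was well above background on 0 WT and 2 Ts1Cje arrays. Myh7, the slow myosin, stood at 6.44, -0.02 and 5.74 in WT and 3.07, 2.37 and 5.65 in Ts1Cje, so its level differed among WT samples by over 6 on the log2 scale. Fast fibre genes, by contrast, had a median of 0.04 and mean deviations between -0.12 and 0.10, and with quantile normalization their median was -0.02. Tendon markers were low in WT replicate 1 (-0.97) and high in WT replicate 3 (0.70). Red blood cell markers had a median of -0.26, which was 0.12 without WT replicate 3, in which they were highest (0.78), and 0.05 without Ts1Cje replicate 2, in which they were lowest (-0.67). Neutrophil markers stood at -0.25 in 4 measured genes (-0.07 with normexp), with S100a9, a calcium-binding protein of neutrophils, between -2.89 and -0.05 in WT and between -3.12 and -2.33 in Ts1Cje. Their mean deviation was -0.04, 0.18 and 0.50 in WT and -0.12, -0.13 and -0.40 in Ts1Cje, so in this mean all Ts1Cje arrays lay below all WT arrays. Of the 4 genes, however, 2 were higher and 2 lower in Ts1Cje, and none was without overlap. Without Ts1Cje replicate 3 the median of this list was -0.00.

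Cells of vessels, connective tissue and nerve showed smaller shifts. Smooth muscle and pericyte markers had a median of 0.09 in 10 genes; Acta2, smooth muscle actin, was higher without overlap, at 3.82, 4.34 and 4.19 in WT and 4.46, 4.53 and 4.65 in Ts1Cje (0.43, SE 0.20). Endothelial markers had a median of 0.03 in 17 genes, with Eng, the transforming growth factor co-receptor endoglin, higher without overlap (1.78, 1.81 and 1.83 in WT, and 1.89, 2.07 and 2.38 in Ts1Cje). Fibroblast markers stood at 0.08 in 14 genes, with Col1a1, the main collagen of scars and tendon, at 0.55 with overlap, and at 0.20 without WT replicate 1. Schwann cell and axon markers stood at 0.07 in 12 genes, satellite cell markers at 0.00 in 8, and skin and hair markers at -0.10 in 5. The part of sample composition in the differences of single genes was not tested.

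Whether EDL differences were unlike those of the soleus was tested as an interaction. No gene was called of 14141 (0%; limma adjusted p under 0.05), and 454 had an unadjusted p under 0.05. Among the genes described above, Csk (-0.64 in the EDL and 0.20 in the soleus), Zcchc3 (-1.06 and -0.03) and Xpo4 (-0.76 and 0.02) had the smallest interaction p, at 0.00123, 0.00249 and 0.0031, each with a limma adjusted p of 0.987. They were named for their small p in the EDL, which is part of this contrast, and that choice tends to lower their unadjusted interaction p. Sod1 stood at 0.86 and 1.09. Gadd45g stood at 1.33 in the EDL and 0.68 in the soleus, and Fstl3 at 0.73 and 0.49. Slide and muscle coincided for all but 1 soleus array, Ts1Cje replicate 1, which lay with the EDL arrays. The level of the soleus relative to the EDL therefore carries the slide. The soleus difference between genotypes, and with it the interaction, carries the slide in part. The difference between genotypes within the EDL does not carry the slide. On that slide WT and Ts1Cje arrays of the EDL alternated in position, and an effect of position was not tested. With slide as a fixed term the interaction also had 0 genes called by limma.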

How the data were processed

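RNA of 14 muscle samples (25 ng each, per the labels) was labelled with the dye Cy3 for Agilent 1-colour arrays. In the deposited scanner files the authors give gProcessedSignal, a background-subtracted intensity, extracted with Agilent Feature Extraction (11.5.1.1 per the file headers, 9.1 per the submitters' processing notes). The authors' deposited table holds log2 values, which correlated at 0.999 or more with the scanner values on the EDL arrays, scaled to the 75th percentile as here. Positions are mm9, per the file headers.

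From these files, log2 gProcessedSignal minus each array's log2 75th percentile was taken. Of 62976 spots, 3671 controls were left out and spots of 1 of 55681 probes averaged; 33822 had a symbol, 32000 matched the RefSeq reference and 2212 symbols were updated. A probe was kept if, in 1 or more of the 4 groups, all of its spots on all arrays were flagged well above background, and a gene is its kept probe of highest mean (14141 genes; 3561 had more than 1). limma 3.58.1 (R 4.3.3) fitted 1 mean per group to all 14 arrays (10 residual degrees of freedom), two-sided, with Benjamini-Hochberg adjustment over all genes. The median SE was 0.18; precision is limited by the number of arrays. An exact permutation test of 3 against 3 arrays cannot go below p = 0.1, so none is given. The fit was tested on simulated data.

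The labels name littermate pairs. Deviations from the genotype means correlated at 0.40, 0.12 and 0.32 between samples of the same number and between -0.32 and -0.03 otherwise. Deviations within a genotype sum to 0, so the negative values follow in part from the positive ones. Samples of the same number also lay next to each other on the slide, so littermates and position cannot be told apart. The numbers were taken as pairs only where pairs are named as a block, and not in the main fit.

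The members, gene lists and tests were chosen with earlier results of these data known. Named genes are, outside the trisomic list, the 12 of smallest p and the 8 of largest difference without overlap in each direction, and up to 3 of smallest p per list, clone names passed over; some are not reported here. Genes of lists beyond those 3 (such as Pdk4, Mt2, Fkbp5, Cfd, Irf7, Socs3, H2-Aa, Myh4 and Trim63) were named after their values were seen. Promoters are from RefSeq tables; no genome was used. Alternatives were normexp, quantile and weighted fits, the deposited table, no filter on dim probes, probe means, a trended robust variance, a slide term, pairs as a block and leaving out each array.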

Additional observations from a re-analysis of the deposited data

Results flagged for a closer look

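The signals set apart here lie in 2 probes without a gene symbol, which the comparison of named genes does not use. The unnamed probe on chromosome 6 (chr6:67155960-67156019, mm9) rose by 1.074 in Ts1Cje (SE 0.13, limma adjusted p = 0.0192 over 25166 probes, n = 3 and 3), with all 3 Ts1Cje arrays above all 3 WT arrays. Leaving out any 1 EDL array gave a difference between 1.02 and 1.15, called without WT replicate 2 (limma adjusted p = 0.0408) and not without any of the other 5 (limma adjusted p from 0.076 to 0.125). The unnamed probe on chromosome 17 (chr17:29379295-29379354, mm9) fell by 0.8286 (limma adjusted p = 0.0243) and was not called with normexp (-0.06, limma adjusted p = 0.99999) or with a trended robust variance (limma adjusted p = 0.99996). Their cause was not tested. The gap test for a single outlying sample was not applied, since each genotype has 3 arrays; values without each array are given instead.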

How the results depend on the processing

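The count of called genes was 1, Dnah11, in most settings with all arrays. It was 3 with quantile normalization and 3 with a trended robust variance, Sod1 and Tmem50b joining in both, 2 with no filter on dim probes (Gm9860 joining), and 3 with all kept probes, an alternative chosen after seeing the data. Leaving out 1 array gave 1 to 3: Dpep2 joined without WT replicate 1, Aoah without WT replicate 2, Far1 and Hcst without WT replicate 3, and Slc23a2, lower, without Ts1Cje replicate 3. Pairs as a block moved the count at an unadjusted p under 0.05 from 407 to 631 and changed no call of a named gene; it ended the calls of both unnamed probes. Normexp gave 123 at that p, the lowest of the settings. The interaction had 0 genes called by limma in all of its settings, with 170 to 975 at an unadjusted p under 0.05. Of 166 named genes, 17 changed direction in some setting, 1 of them with all arrays in the fit, and the cause was not tested. Genes near background are limited by signal: 156 were kept through 1 EDL genotype alone, and their folds are bounds where given.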
